A study of Homo sapiens with 6 samples.

Results

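The 10 genes described here make, restrain or break down the polyamines putrescine, spermidine and spermine. They are ODC1, AMD1, SRM, SMS, OAZ1, OAZ2, AZIN1, SAT1, SMOX and PAOX, 10 of the 20046 genes measured, and were read from every probe annotated to one of their symbols, 17 of the 47323 probes on the array. The cells were HepG2, an established human liver tumour cell line, labelled either control or PBLD overexpressed, with 3 samples of each and 1 Illumina bead array per sample. PBLD is a protein named for its resemblance to enzymes of bacterial phenazine synthesis. How PBLD was delivered, whether controls carried an empty vector, and whether the lines were single clones or pools are not given in the sources used here, nor is it stated whether replicates came from different cultures. The p-values therefore reflect the spread among 6 arrays, possibly technical, and so few arrays limit the precision.

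Polyamines are small positively charged molecules that bind nucleic acids and are needed by dividing cells. Ornithine decarboxylase (ODC1) makes putrescine, spermidine synthase (SRM) and spermine synthase (SMS) extend it with aminopropyl groups supplied through S-adenosylmethionine decarboxylase (AMD1), and the acetyltransferase SAT1 with the oxidases PAOX and SMOX turns the chain back. Antizymes (OAZ1, OAZ2) bind ODC1 protein and send it to the proteasome, the antizyme inhibitor AZIN1 frees it again, and much of this control acts on translation and protein turnover, which an RNA array does not measure.

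In PBLD cells, ODC1 rose 1.79-fold and SRM rose 1.37-fold, both enzymes of synthesis. The other 8 genes did not pass the test, with log2 changes between -0.17 for OAZ2 and 0.21 for AMD1. The count of 2 rises and 0 falls among 10 genes (20%) is to be read against all genes, of which 10% passed in either direction, 5.81% as higher and 4.2% as lower. Among genes above background on at least 3 arrays, as all 10 of these were, 18.4% passed in either direction, 10.6% as higher and 7.72% as lower. The share of the polyamine genes was thus close to that of other expressed genes. Their median log2 change was 0.054, beside 0.0088 over all 20046 genes and 0.024 over the 10880 expressed ones. The groups did not overlap for the same 2 genes, against 23.4% of all genes and 33.9% of expressed genes.

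All values are log2 intensities as deposited, where every array has a median of 8 and the background limit, the 95th percentile of 590 probes for genes silent in liver cells, lay between 8.06 and 8.09. A gene is represented by its brightest probe, and changes are PBLD minus control, tested with limma across all probes and called at a Benjamini-Hochberg adjusted p under 0.05. The brightest PBLD probe, ILMN_1789653, was at 8.09 ± 0.09 on the control arrays (SD, n = 3), of which 1 was above background. It read 12.62, 12.84 and 12.72 on the PBLD arrays. The PBLD probe ILMN_2304404 also rose, by 4.40 on the log2 scale, while ILMN_1699684 and ILMN_1760748 were above background on 0 arrays. Of 8 markers of hepatocyte-derived cells, 8 were above background on all 6 arrays. In PBLD cells 4 of them were lower (TTR, SERPINA1, APOB and APOA1), beside 7.72% of expressed genes. Their log2 changes ran from -0.59 for TTR to -0.30 for APOA1, while ALB, AFP, TF and FGB did not pass. The mean of the 8 markers ran from 14.90 to 15.07 in control and from 14.72 to 14.84 in PBLD arrays. Of 5 fibroblast or stellate markers, 1 (PDGFRB) was above background on all arrays. COL3A1 was above it on 2 control arrays, COL1A1 on 1 PBLD array, and DCN and LUM on none. Of 3 endothelial markers 0 were above background on all arrays. VWF was above it on 3 control arrays and 1 PBLD array (log2 change -0.21, limma adjusted p = 0.114), and PECAM1 and CDH5 on none. Of 3 blood markers LYZ and CD68 were above background on all arrays, while the pan-leukocyte marker PTPRC was above it on none. LYZ was also lower in PBLD cells. The part of these marker differences in the results below was not tested. In bulk RNA, more RNA per cell and more cells that express a gene cannot be told apart.

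**Figure D1:**
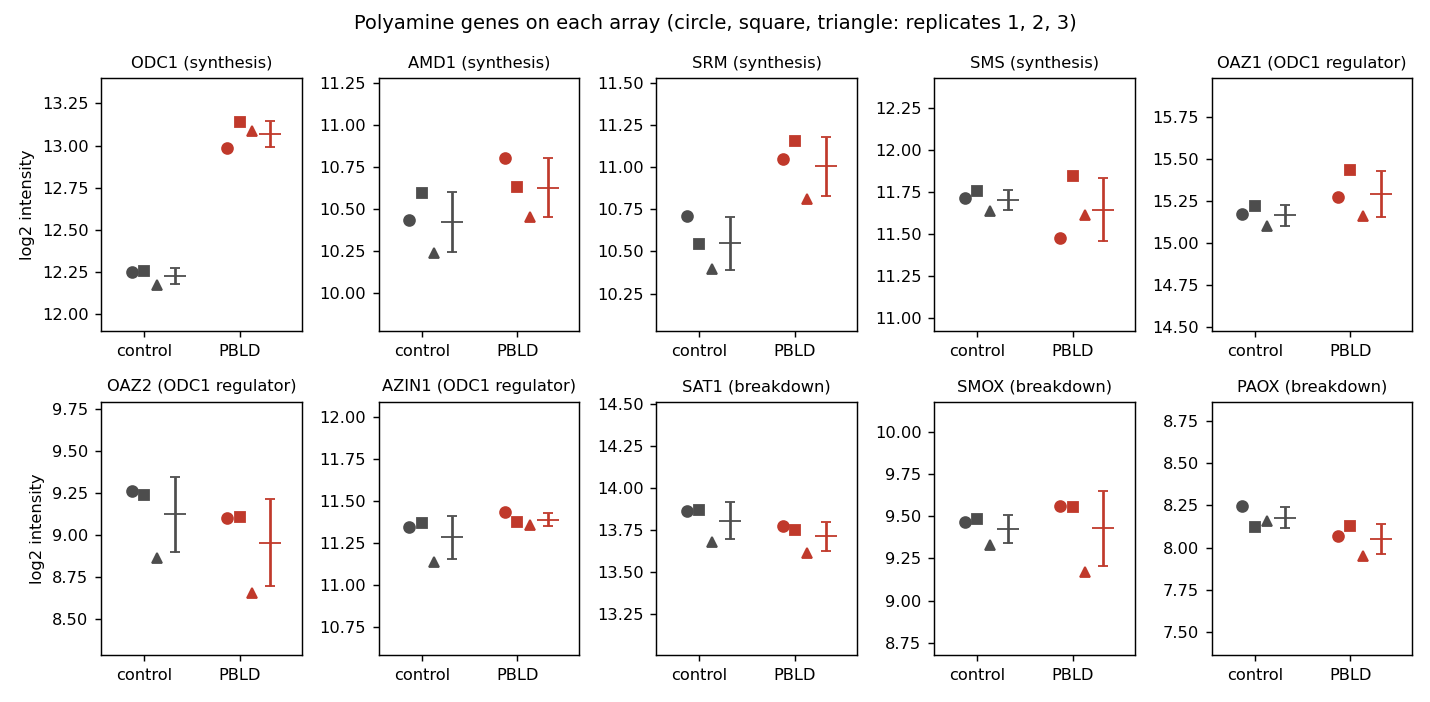
Log2 intensity (vertical axes, each spanning the same range of units) of the brightest probe of each polyamine gene on the 3 control (grey) and 3 PBLD overexpressed (red) arrays; circle, square and triangle are replicates 1, 2 and 3, and bars are the mean and SD. ODC1 lies between 12.17 and 12.25 in control and between 12.99 and 13.14 in PBLD arrays, SRM also separates, and the other 8 genes overlap.

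ODC1, which commits ornithine to polyamine synthesis, read 12.25, 12.25 and 12.17 on the control arrays and 12.99, 13.14 and 13.09 on the PBLD arrays. Each PBLD array was above every control array, and the gap between the groups (0.73) was larger than the range within either. The control mean was 12.23 ± 0.05 and the PBLD mean 13.07 ± 0.08 (SD over 3 arrays), and they differed by 0.84 on the log2 scale (SE 0.06, 95% interval 0.71 to 0.98, limma adjusted p = 5.86e-07). Among 20046 genes ODC1 had the 22nd largest rise and the 48th smallest p. Its log2 change stayed between 0.79 and 0.89 under all 15 alternatives, with limma adjusted p from 7.10e-16 to 0.00407. The alternatives changed the processing or the model, or left out an array.

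SRM transfers an aminopropyl group to putrescine and so makes spermidine. It read 10.71, 10.54 and 10.39 on the control arrays and 11.05, 11.15 and 10.81 on the PBLD arrays. The groups did not overlap, but the lowest PBLD array was only 0.10 above the highest control array. The log2 change was 0.45 (SE 0.09, 95% interval 0.26 to 0.65, limma adjusted p = 0.00493), the 266th largest rise among all genes. The call was lost after normexp background correction and quantile normalization, at a log2 change of 0.46 and an adjusted p of 0.0825 (4.99e-06 to 0.0825 over the 15 alternatives).

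The start regions of the 2 genes that rose are shown because both hold CACGTG, the E-box letters that basic helix-loop-helix factors such as MYC with MAX are known to bind. The RefSeq promoter table of GRCh38.p14 gives windows of 300 bases, 250 before and 50 after a start, for 7 of the 10 genes, in 10 windows. AZIN1, PAOX and SMOX have none there. CACGTG, which reads the same on both strands, was found in the windows of 2 of these 7 genes, ODC1 and SRM. Of all 34796 windows, 7.20% held it, as did 8.77% of 27305 genes in any of their windows. The regions and letters were chosen with the rises of ODC1 and SRM known, so these shares are no test of enrichment. In the sequences below, written 5′ to 3′ on the minus strand of the chromosome, the strand on which both genes lie, capitals mark CACGTG.
SRM, the 250 bases before its start, chr1:11060019-11060268, motif beginning 199 bases before the start: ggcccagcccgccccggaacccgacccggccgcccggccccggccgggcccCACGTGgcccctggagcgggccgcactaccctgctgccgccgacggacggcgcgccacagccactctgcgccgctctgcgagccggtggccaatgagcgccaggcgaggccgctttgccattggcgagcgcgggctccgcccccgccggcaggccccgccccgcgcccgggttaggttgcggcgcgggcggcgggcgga
ODC1, downstream start, first motif beginning 29 bases before the start, chr2:10448024-10448053: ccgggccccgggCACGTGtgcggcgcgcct
ODC1, downstream start, second motif beginning 5 bases after the start, chr2:10447990-10448019: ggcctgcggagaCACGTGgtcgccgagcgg
ODC1, the 250 bases before its upstream start, with no CACGTG, chr2:10448328-10448577: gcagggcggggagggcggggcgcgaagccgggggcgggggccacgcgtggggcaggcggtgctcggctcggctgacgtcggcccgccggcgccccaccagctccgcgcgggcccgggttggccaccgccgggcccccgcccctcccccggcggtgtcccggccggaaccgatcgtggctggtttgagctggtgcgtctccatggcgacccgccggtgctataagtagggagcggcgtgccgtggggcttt

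The table lists 2 starts of ODC1, 315 bases apart, and both motifs of ODC1 lie at the downstream one. The array has 1 ODC1 probe and does not separate transcripts from the 2 starts. The windows of AMD1, SMS, OAZ1, OAZ2 and SAT1 did not hold these letters, which says nothing of factors bound elsewhere. A match of letters is a description of the sequence and not evidence of binding in these cells.

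AMD1 makes the decarboxylated S-adenosylmethionine from which SRM and SMS take their aminopropyl groups. It read 10.43, 10.60 and 10.24 on the control arrays and 10.80, 10.63 and 10.45 on the PBLD arrays. The lowest PBLD array fell within the control range, and the spread within each group was close to the difference between them. The log2 change of 0.21 (SE 0.09, 95% interval 0.01 to 0.40) did not pass (limma adjusted p = 0.317), and its adjusted p ran from 0.0839 to 0.763 over the alternatives.

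SMS, which makes spermine from spermidine, has 2 probes, both well above background. ILMN_1694305 read 11.72, 11.75 and 11.64 in control and 11.48, 11.84 and 11.62 in PBLD arrays, and ILMN_2225318 read 11.47, 11.40 and 11.30 in control and 11.42, 11.51 and 11.42 in PBLD arrays. The groups overlapped on both probes. The log2 changes were -0.06 (95% interval -0.23 to 0.12, adjusted p = 0.884) and 0.06 (95% interval -0.08 to 0.20, adjusted p = 0.815) in limma, so neither interval reaches the log2 change of 0.45 measured for SRM. A test of the difference between the 2 synthases was not made.

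**Figure D2:**
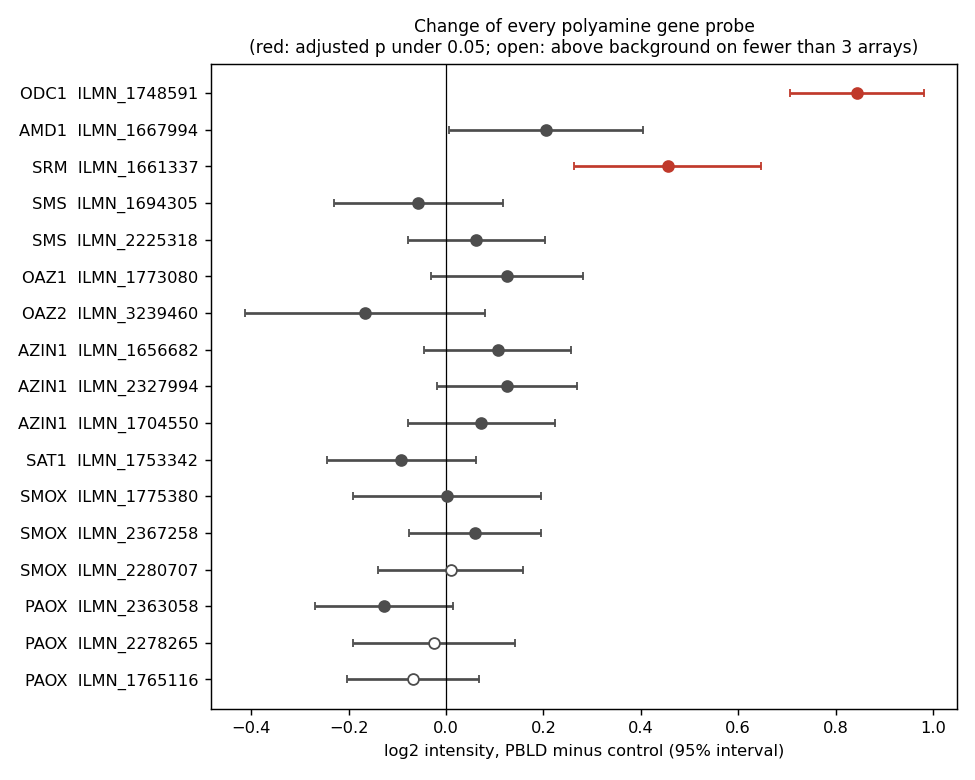
Log2 change (horizontal axis, PBLD minus control, with the 95% interval from limma) of each of the 17 polyamine gene probes; red marks an adjusted p under 0.05 and open circles mark probes above background on fewer than 3 arrays. The intervals of ODC1 (0.71 to 0.98) and SRM (0.26 to 0.65) lie farthest above 0, and the unadjusted interval of AMD1 (0.01 to 0.40) begins just above 0.

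The genes that act on ODC1 protein did not pass. OAZ1, the main antizyme, read 15.17, 15.22 and 15.10 on the control arrays and 15.28, 15.43 and 15.16 on the PBLD arrays. These values overlap between groups, and they lie close to the brightest values on the arrays, which were between 15.73 and 16.04. The log2 change was 0.12 (95% interval -0.03 to 0.28, limma adjusted p = 0.52), and whether it was compressed near the top of the scale was not tested. OAZ2, a second antizyme, read 9.26, 9.24 and 8.86 in control and 9.10, 9.11 and 8.66 in PBLD arrays. Replicate 3 was the lowest array of both groups, and the interval of its change was the widest of the 17 probes (-0.17, 95% interval -0.41 to 0.08, adjusted p = 0.633). Levels of antizyme RNA do not show how much antizyme is made, since its translation needs a frameshift that polyamines promote.

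AZIN1 resembles ODC1, has no decarboxylase activity of its own and binds antizyme in its place. Its brightest probe, ILMN_1656682, read 11.34, 11.37 and 11.13 in control and 11.43, 11.38 and 11.36 in PBLD arrays. The groups overlapped by 0.01, with the lowest PBLD array just below the highest control array. The log2 change was 0.11 (95% interval -0.04 to 0.26, limma adjusted p = 0.609), and the dimmer probes ILMN_2327994 and ILMN_1704550, at 8.19 to 8.55, gave 0.13 (adjusted p = 0.46) and 0.07 (adjusted p = 0.793).

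Of the 3 breakdown genes, 0 passed in limma, and 0 had an unadjusted p under 0.05. SAT1, which acetylates spermidine and spermine for export or oxidation, read 13.87, 13.87 and 13.68 in control and 13.78, 13.75 and 13.61 in PBLD arrays. The PBLD arrays sat slightly lower, within the control range except for the lowest, at a log2 change of -0.09 (95% interval -0.24 to 0.06, adjusted p = 0.699). SMOX, which oxidises spermine directly, read 9.47, 9.48 and 9.33 in control and 9.56, 9.55 and 9.17 in PBLD arrays on ILMN_1775380. The PBLD arrays lay on both sides of the controls, and the log2 change was 0.0016 (95% interval -0.19 to 0.19, adjusted p = 0.997), with 0.06 (adjusted p = 0.823) on ILMN_2367258 and ILMN_2280707 above background on 0 arrays.

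PAOX, the peroxisomal oxidase of acetylated polyamines, was close to the background limit. Its brightest probe, ILMN_2363058, read 8.25, 8.12 and 8.16 on the control arrays, all above the limit, and 8.07, 8.13 and 7.95 on the PBLD arrays, of which 1 was above it. The groups overlapped, and the log2 change was -0.13 (95% interval -0.27 to 0.01, limma adjusted p = 0.431). Whether this value understates a change of so dim a gene was not tested. The other PAOX probes, ILMN_2278265 and ILMN_1765116, were above background on 2 and 0 arrays and changed by -0.03 (adjusted p = 0.958) and -0.07 (adjusted p = 0.78).

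Replicate 3 stood low for these genes in both groups. It was the lowest control array for 9 of the 10 genes and the lowest PBLD array for 8, and for 7 genes it was the lowest in both. The share of other genes lowest on these arrays was not counted, so the pattern is not shown to be particular to the polyamine genes. The same arrays had the lowest 75th percentiles, 8.50 in control and 8.51 in PBLD against 8.54 to 8.60 on the other 4 arrays. Without control replicate 3 the log2 change of ODC1 was 0.82 and that of SRM 0.38, and without PBLD replicate 3 they were 0.84 and 0.55, with both calls kept each time.

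**Figure D3:**
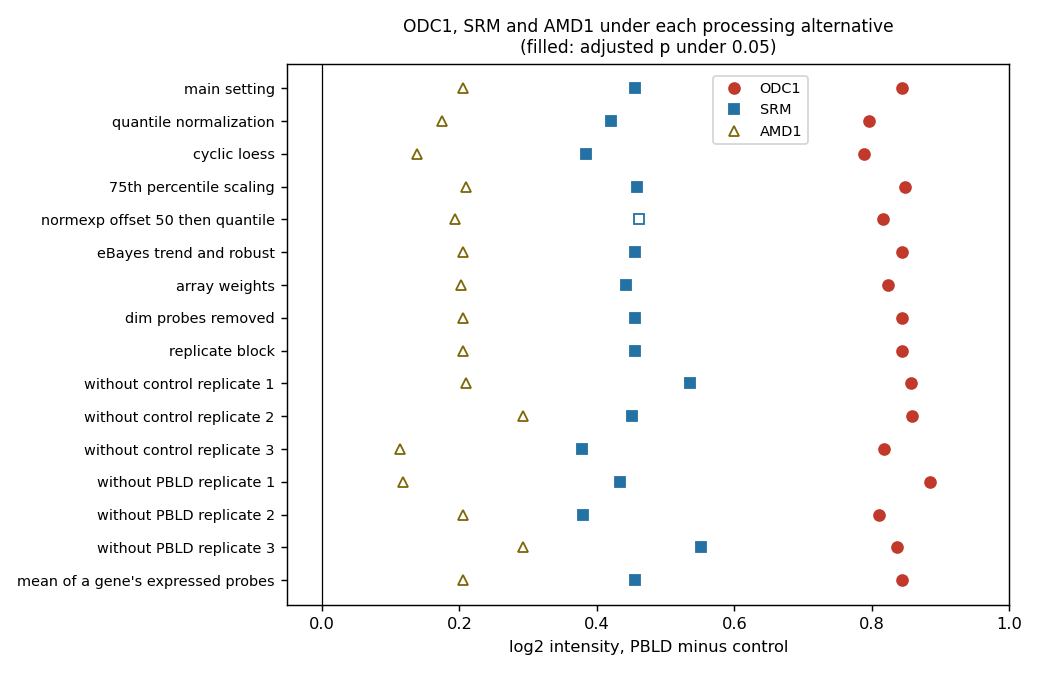
Log2 change (horizontal axis, PBLD minus control) of ODC1 (red circles), SRM (blue squares) and AMD1 (olive triangles) in the main setting and under each of 15 alternatives. The alternatives changed the processing or the model, or left out an array. Filled symbols have an adjusted p under 0.05. ODC1 stays between 0.79 and 0.89 and is called throughout, SRM loses its call with normexp, and AMD1 is called in none.

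Beyond these genes, 43 others that supply, use, move or control polyamines were listed, and 41 had a probe; the list was drawn up by function with earlier results of these data known. Of the 41, 4 rose, 2 fell and 35 did not pass (14.6% called, beside 10% of all genes and 18.4% of expressed genes), with a median log2 change of 0.0017. AGMAT, annotated as an agmatinase, an enzyme that in other organisms makes putrescine from agmatine, read 11.30, 11.28 and 11.31 in control and 11.54, 11.74 and 11.50 in PBLD arrays. All PBLD arrays were above all controls, and it rose by 0.29 on the log2 scale (SE 0.07, limma adjusted p = 0.0169). Its call was lost without control replicate 1 (0.0595 as its adjusted p), control replicate 2 (0.0721) or PBLD replicate 2 (0.0829), with an intensity trend and robust eBayes together, and with normexp (0.00364 to 0.367 over the alternatives). The spermidine acetyltransferase relative SAT2 changed by -0.06 (adjusted p = 0.864). AZIN2, OAZ3 and AOC1 were above background on 0 arrays.

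Of 5 genes of ornithine supply, 0 passed in limma (beside 18.4% of expressed genes), with 2 at an unadjusted p under 0.05. ARG1, the arginase of the urea cycle that releases ornithine, read 10.07, 10.13 and 10.04 in control and 10.27, 10.21 and 10.32 in PBLD arrays, a log2 change of 0.19 (adjusted p = 0.111). ALDH18A1, which makes the precursor of ornithine and proline from glutamate, changed by -0.16 (adjusted p = 0.26), OAT, the ornithine aminotransferase, by 0.02 (adjusted p = 0.981) and the second arginase ARG2 by -0.03 (adjusted p = 0.94). The OAT probe ILMN_1654441, above background on all arrays, differed in sign (-0.08, adjusted p = 0.802). ARG1 and ALDH18A1 had no overlap between groups, in opposite directions, as had 23.4% of all genes and 33.9% of expressed genes in either direction.

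Synthesis of spermidine and spermine leaves methylthioadenosine, which the methionine salvage pathway returns to methionine. Of 9 genes of S-adenosylmethionine supply and salvage, 2 rose and 7 did not pass (22.2% called, close to the 18.4% of expressed genes). APIP, a dehydratase of salvage, read 9.94, 10.10 and 9.93 in control and 10.36, 10.35 and 10.43 in PBLD arrays, a rise of 0.39 on the log2 scale (SE 0.07, limma adjusted p = 0.0016), and its second probe rose by 0.30 (adjusted p = 0.0146). ENOPH1, the enolase-phosphatase of the same pathway, read 10.86, 10.78 and 10.85 in control and 11.07, 11.08 and 11.11 in PBLD arrays and rose by 0.26 (SE 0.06, adjusted p = 0.0149). In both genes the PBLD arrays lay above all controls. The call of ENOPH1 was lost without control replicate 2 (adjusted p = 0.0788), with quantile normalization, cyclic loess, an intensity trend with robust eBayes, and normexp (0.0101 to 0.426 over the alternatives), and that of APIP with normexp (adjusted p = 0.139, range 6.94e-05 to 0.139). MAT2A, a synthase of S-adenosylmethionine, changed by -0.10 (adjusted p = 0.736), its regulatory subunit MAT2B by 0.06 (adjusted p = 0.888), MRI1, a salvage isomerase, by 0.09 (adjusted p = 0.71) and the transaminase GOT1 by -0.05 (adjusted p = 0.854). The MAT2B probe ILMN_1680246, above background on all arrays, differed in sign (-0.11, adjusted p = 0.475).

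Spermidine is also the donor for hypusine, a modified lysine that DHPS and DOHH build on the translation factor EIF5A. EIF5A read 12.47, 12.30 and 12.27 on the control arrays and 12.63, 12.75 and 12.67 on the PBLD arrays. The PBLD arrays were higher without overlap, and the log2 change was 0.34 (SE 0.07, limma adjusted p = 0.00601), a call lost with normexp (adjusted p = 0.265, range 0.000645 to 0.265). DHPS, which takes the aminobutyl group from spermidine, did not pass on its brightest probe (-0.23, adjusted p = 0.0841), was lower on ILMN_1752967 (-0.38, adjusted p = 0.00132) and did not pass on ILMN_1687279 (-0.14, adjusted p = 0.654). DOHH, which completes hypusine, read 9.06, 8.84 and 8.74 in control and 9.39, 9.15 and 9.04 in PBLD arrays. The groups overlapped, although each PBLD array was above the control array of the same number. Its log2 change was 0.31 (95% interval 0.11 to 0.51, limma adjusted p = 0.0625), and that of EIF5A2 was -0.06 (adjusted p = 0.842).

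Of 10 measured transporters and uptake proteins, 1 fell and 9 did not pass (10% called, beside 18.4% of expressed genes). SLC7A2, a carrier of arginine and ornithine, read 11.96, 11.76 and 11.56 in control and 11.30, 11.27 and 11.12 in PBLD arrays. No PBLD array reached the control range, and the log2 change was -0.53 (SE 0.09, limma adjusted p = 0.00123) on the 1 of its 3 probes above background. The related carrier SLC7A1 changed by -0.12 (adjusted p = 0.453), the amino acid transporter subunit SLC3A2 by 0.23 (adjusted p = 0.0829, and -0.03 on its second probe), the vesicular polyamine transporter SLC18B1 by -0.21 (adjusted p = 0.126) and SLC47A1 by -0.04 (adjusted p = 0.895).

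**Figure D4:**
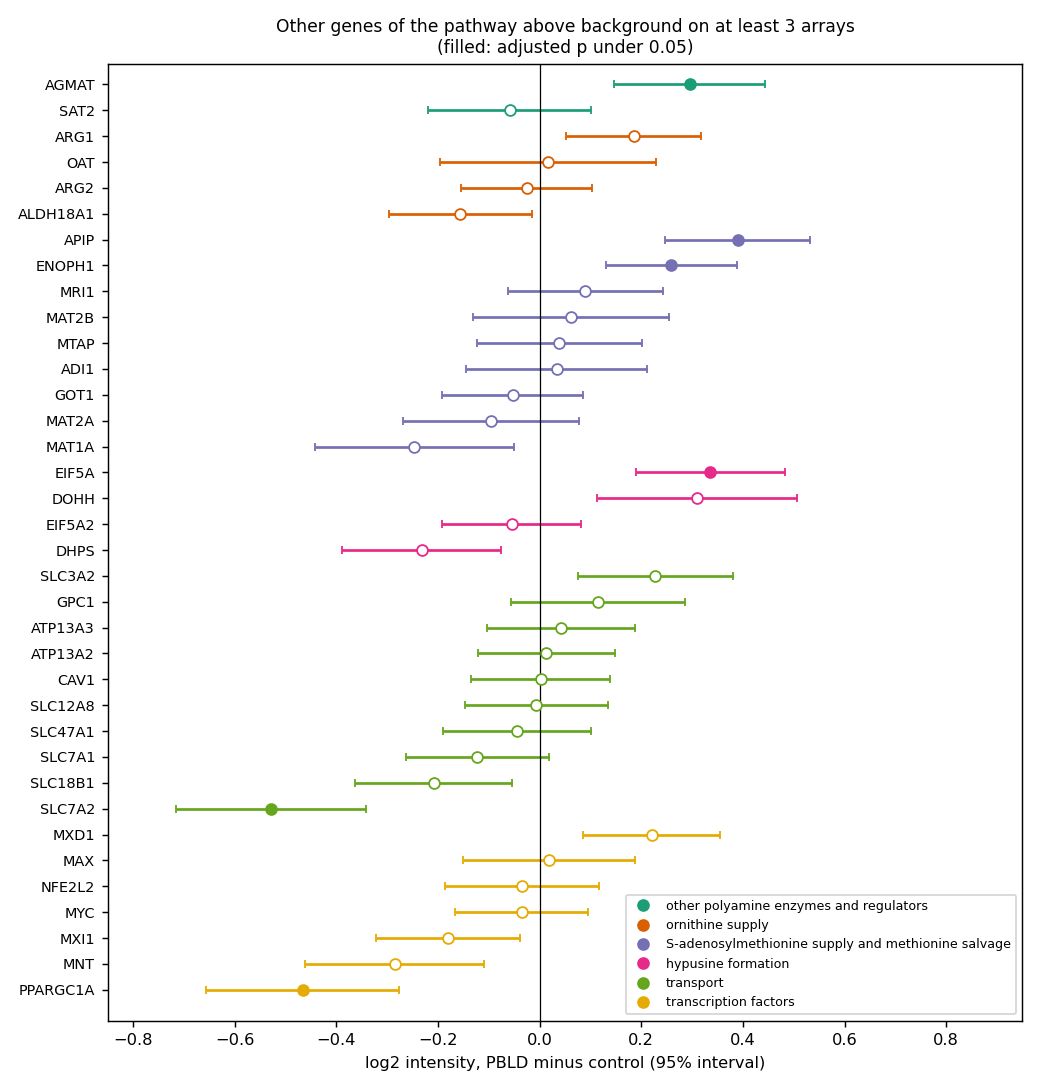
Log2 change (horizontal axis, PBLD minus control, with the 95% interval from limma) of the 36 other pathway genes above background on at least 3 arrays, brightest probe each, coloured by function; filled circles have an adjusted p under 0.05. AGMAT, APIP, ENOPH1 and EIF5A are filled on the right, SLC7A2 and PPARGC1A on the left.

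Of 7 transcription factors linked to these genes, 1 fell and 6 did not pass (14.3% called, beside 18.4% of expressed genes). PPARGC1A, a coactivator of metabolic genes, read 10.31, 9.93 and 9.89 in control and 9.61, 9.57 and 9.56 in PBLD arrays without overlap, and its log2 change was -0.47 (SE 0.09, limma adjusted p = 0.00366). MYC, a known activator of ODC1, read 12.49, 12.44 and 12.37 in control and 12.41, 12.38 and 12.40 in PBLD arrays on its brightest probe, which overlap (-0.04, 95% interval -0.17 to 0.10, adjusted p = 0.912). Its second probe, ILMN_2110908, read 10.58, 10.75 and 10.84 in control and 11.03, 10.87 and 10.88 in PBLD arrays (0.20, adjusted p = 0.159), without overlap, so the 2 probes differ in sign and neither passed. MNT and MXD1, which compete with MYC for MAX, changed by -0.29 (adjusted p = 0.0547) and 0.22 (adjusted p = 0.052), and NFE2L2, a stress factor, by -0.03 (adjusted p = 0.929).

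The genes whose pattern over the 6 arrays was most like that of ODC1 were MT1F, a metallothionein, CENPA, the centromeric histone, LRR1, BRIX1, a ribosome assembly factor, and MCM4, a subunit of the replicative helicase, among 9557 genes above background on all 6 arrays. Their Pearson's r with ODC1 was 0.999, 0.998, 0.997, 0.996 and 0.996. Of those 9557 genes, 406 had an r above 0.95. Any gene that separates the 2 groups in the direction of ODC1 with little spread scores high, while genes lower in PBLD cells do not. These values thus describe the arrays and name no partner of ODC1.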

How the data were processed

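Total RNA of 3 control and 3 PBLD overexpressed HepG2 samples was measured on Illumina bead arrays. The authors deposited 1 value per probe and sample, taken here as log2 intensity from its range, each array with a median of 8. The submitters' processing notes name BeadStudio. The sources used here do not say how the values were scaled, logged or treated for background. The deposited non-normalized signals were left aside, since the names of their 12 per-sample columns match no label.

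Samples were grouped by their titles. Every probe was tested with limma 3.58.1 (lmFit, eBayes, two-sided) in R 4.3.3 without a filter, with Benjamini-Hochberg adjustment over all 47323 probes. Of these, 30113 carry 1 gene symbol, 8 several and 17202 none in the platform annotation, and RefSeq names changed 0 symbols. The members, lists and tests were chosen with earlier results of these data known. Named beside the members are each listed pathway gene that passed, up to 4 more per function by highest mean, PBLD and the 5 genes most correlated with ODC1. DHPS probes and further undetected genes were named after their values were seen. The steps were tested on simulated data. Plots used matplotlib 3.10.9 (Python 3.11.15).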

Additional observations from a re-analysis of the deposited data

How the results depend on the processing

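Across 15 refits, ODC1 kept its call and its direction in all of them, and SRM lost its call with normexp (offset 50) and then quantile normalization, which left 1 polyamine gene called, higher, in place of 2, and 937 probes called over the array in place of 2875. At an adjusted p under 0.01, 1661 probes and both polyamine genes were called. Of the changes that did not pass, that of SMS turned sign without PBLD replicate 1 and with a gene's expressed probes averaged (0.0027), and that of SMOX with quantile normalization (-0.033), cyclic loess (-0.043), normexp (-0.045), and without control replicate 3, PBLD replicate 1 or PBLD replicate 2. Over the arrays left out, SMS ran from -0.156 to 0.027 and SMOX from -0.064 to 0.13. Called pathway genes, 6 in the main setting (4 higher, 2 lower), numbered 12 with quantile normalization (7 lower), 12 with cyclic loess (7 lower), 12 with 75th percentile scaling (7 higher, 5 lower), 10 with array weights (4 lower), 2 with normexp (0 higher) and 13 with the replicate block (7 higher, 6 lower), with 2 higher at an adjusted p under 0.01. Leaving out 1 array at a time gave 4 to 10 of them (2 to 6 higher, 2 to 6 lower), with 10 without control replicate 3 (6 lower) and 2 higher without control replicate 2, and between 1985 and 2762 probes in all. AGMAT and ENOPH1 each lost their call in 5 refits, APIP and EIF5A in 1 each. The cause was not tested. Replicate numbers are shared between groups, but the labels do not say whether same-numbered arrays were handled together, so the main test left the numbers out. Deviations of same-numbered arrays correlated at 0.11, 0.08 and 0.06, and those of differently numbered arrays at -0.067 to -0.003. Every array thus correlated best with its own number. Whether same-numbered arrays share a replicate effect was not tested. With the replicate block in limma 3953 probes were called in place of 2875, the 2 polyamine calls stood, and AMD1 had an adjusted p of 0.0839. Probes near the background limit, such as those of PAOX, cannot show small changes.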
